A study of Rattus norvegicus with 18 samples.

Results

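The genes described here are the nuclear-coded subunits of the mitochondrial respiratory chain and of ATP synthase in the rat forebrain. They were chosen by symbol: every probe set whose single platform gene symbol begins with Nduf followed by a, b, c, s or v and a digit, Uqcr, Cox4 to Cox8 or Atp5, or is Sdha to Sdhd or Cyc1, with the probe set of highest mean signal kept for each gene. This gave 80 genes of the 14217 that have a probe set with a single symbol on the array: 35 of complex I, 4 of complex II, 8 of complex III, 17 of complex IV and 16 of complex V, the ATP synthase. The symbols also bring in Cox6c-ps1, which is named as a pseudogene of Cox6c, Atp5if1, the inhibitor of ATP synthase, Ndufa4l2, a paralogue of Ndufa4 (itself now placed with complex IV but grouped here by its symbol), and Cox7a2l, a supercomplex assembly factor, while 7 probe sets that carry several symbols were left out by the rule.

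The study asked what loss of paradoxical sleep (REM sleep) and the following recovery sleep do to gene expression in the right neocortex and the right hippocampal formation of male Sprague-Dawley rats. All rats had electrodes implanted for recording the electroencephalogram and muscle tone. Control rats stayed in standard conditions, deprived rats were kept for 78 h by the flowerpot method, in which a small platform over water wakes the animal when muscle tone is lost, and recovery rats were, per the sample labels, deprived for 72 h and then left to sleep for 6 h (the treatment notes can also be read as 78 h of deprivation before recovery). For each of the 3 states, RNA was pooled from 2 sets of 6 rats, and both structures were taken from each animal, so the data are 12 pools (6 groups of 2) from 6 animal pools. Pooling hides the spread between single rats, and a control for the platform itself was not analysed here. The pools of set 1 were each hybridised to 2 arrays, which were averaged, and those of set 2 to 1 array.

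Electrons from NADH enter the chain at complex I and those from succinate at complex II, pass through ubiquinone to complex III, then through cytochrome c to complex IV, and the proton gradient built on the way drives complex V. Some subunits of complexes I, III, IV and V are coded by mitochondrial DNA and do not fall under these symbols. Complex IV also has subunits that come in alternative forms for particular tissues: Cox6a2, Cox7a1 and Cox8b are the forms of heart and skeletal muscle, and Cox4i2, Cox6b2 and Cox7b2 are forms of limited tissue range. Brain relies heavily on this pathway, and fast-spiking parvalbumin interneurons are known for their high content of mitochondria.

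Values are log2 signals, and a difference of 1 is a doubling. The array medians lay between 32.1 and 37.1 signal units. Of the 80 genes, 76 passed the filter that left out the dimmest 40% of probe sets (a mean log2 signal of 4.30), and Cox4i2, Cox6b2, Cox7b2 and Cox8b did not. Markers set the labelled structures apart: of 9 hippocampal neuron markers 7 were called higher in the hippocampal formation and 2 lower, and of 10 neocortical neuron markers 6 were called lower and 2 higher. These counts include Fibcd1 (a mean of 6.90 in the hippocampal formation and 3.71 in the neocortex) and Foxp2 (3.86 and 6.92). Each passed the filter only through the structure where it is high, so their calls are not read as results. "Called" means a Benjamini-Hochberg adjusted p under 0.05 in limma over all 18625 probe sets that passed the filter. In pooled tissue, fewer cells of a type and less RNA per cell cannot be told apart.

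Most subunits had close to the same signal in both structures. The hippocampal formation had 12 of the 76 tested subunits higher and 2 lower than the neocortex (limma on the paired differences of the 6 animal pools). Over all probe sets 14.1% were higher and 15.1% lower, so the share of subunits higher was near the background and the share lower was below it. After quantile normalization the split was 9 of 76 higher and 4 of 76 lower, against 14.5% and 14% of all probe sets. One of the lower pair, Cox6a2, passed the filter only through its neocortical values, so its call in that count is not read as a result. The median difference of the 76 subunits was 0.041 (log2), with 56 of 76 above 0, against a median of -0.0062 over 10294 genes. That direction is not stable, since the median after quantile normalization was -0.0023, with 37 of 76 above 0. The subunits differed little in size: 68.4% of them differed by under 0.1, against 35.4% of all genes. They were also brighter, with medians per pool of 9.8 to 9.95 against 6.51 to 6.58 over all kept probe sets. Genes of like brightness were not set beside them. In 6 subunits the 6 hippocampal pools did not overlap with the 6 neocortical ones, 7.89% of those tested against 13.5% of all probe sets. Messenger RNA integrity, read as the ratio of 3' to 5' actin probe sets, ran from 2.35 to 3.17 in neocortical pools and from 2.33 to 2.52 in hippocampal pools, and its part in these differences was not tested.

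**Figure D1:**
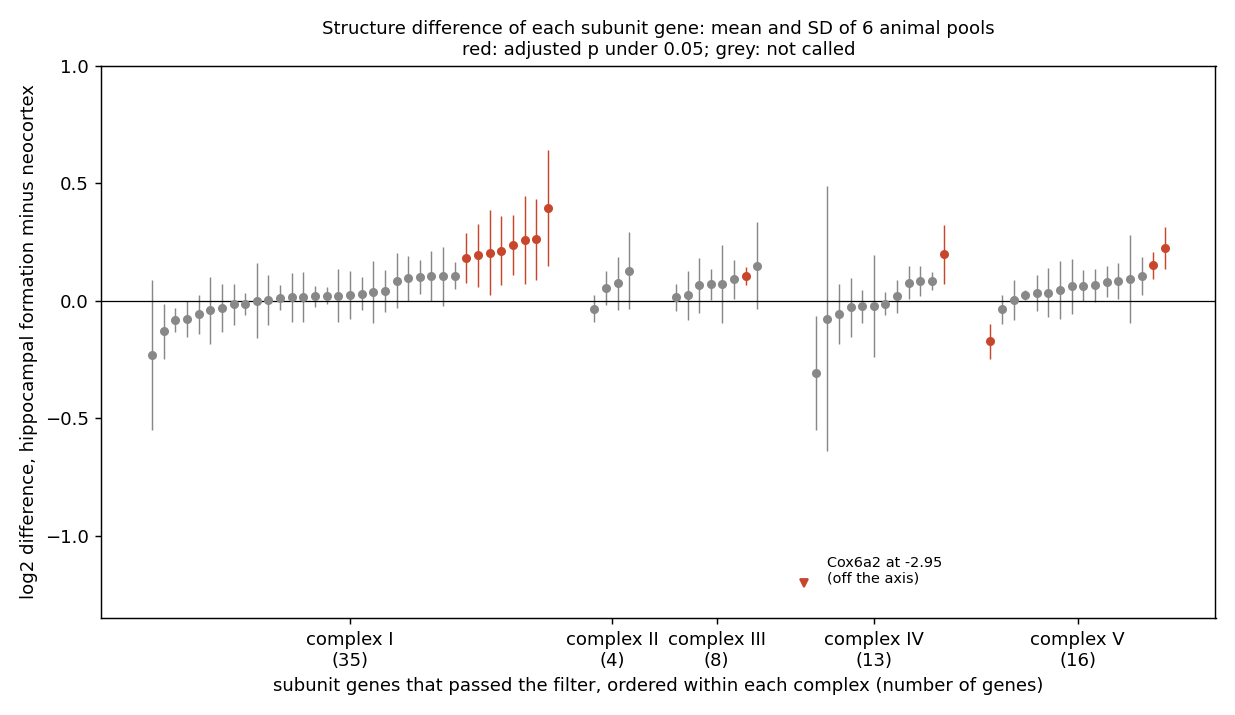
Log2 difference between hippocampal formation and neocortex (vertical axis) for each of the 76 subunit genes that passed the filter, ordered within its complex along the horizontal axis, as the mean of 6 animal pools with the SD as the bar. Red points are the 14 called genes. Most points lie within 0.1 of 0, Ndufa5 (0.40) is the highest, and Cox6a2 (-2.95) lies below the axis and is drawn as a triangle without its bar.

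The difference that stood out was Cox6a2, the muscle-type form of a complex IV subunit. In the neocortex its log2 signal was 5.63 and 6.28 in the control pools of sets 1 and 2, 5.34 and 6.15 in the deprived pools, and 5.54 and 5.84 in the recovery pools. In the hippocampal formation it was 1.97 and 3.89, 2.76 and 3.10, and 2.0 and 3.38 in the same order. All 6 hippocampal pools were below all 6 neocortical pools, and all 6 were also under the level of the filter, where MAS5 signals are poorly measured. Since the gene passed the filter only because its neocortical values are high, the test among the filtered probe sets is not used for it. The measured difference was -2.95 ± 0.55 (SD, n = 6 animal pools), with a limma adjusted p of 3.10e-05 when all probe sets were tested with no filter. Its size depends on the low hippocampal values and no fold is given: with 16 added to every signal it was -1.59 ± 0.18 (SD, n = 6). Its common counterpart Cox6a1 differed by 0.019 ± 0.071 (SD, n = 6; adjusted p = 0.74), with a mean of 10.94 in the neocortex and 10.96 in the hippocampal formation.

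Markers of several cell types were lower in the hippocampal formation together with Cox6a2. Of 6 tested markers of parvalbumin interneurons 3 were called lower and none higher: Pvalb by -0.62, and the fast potassium channel genes Kcnc1 by -0.59 and Kcnc2 by -0.35. The summed signal of that list was 2807 to 3167 in neocortical pools and 2377 to 2622 in hippocampal pools. All 9 tested markers of striatal neurons were called lower, with a summed signal of 1862 to 2401 in neocortical pools and 713.5 to 944.5 in hippocampal pools. Among them, Adora2a (a mean of 3.31 in the hippocampal formation and 6.33 in the neocortex) and Drd2 (3.955 and 6.18) passed the filter only through their neocortical values. Their calls are not read as results. Of 10 skeletal muscle genes on the array 5 passed the filter, with a summed signal over the list of 2019 to 2789 in neocortical pools and 1640 to 2350 in hippocampal pools. Most of that sum is Myh1, at a mean log2 signal of 11.01 in the neocortex and 10.79 in the hippocampal formation. The next brightest, Acta1, was at 7.11 and 7.02. Of the 5 muscle genes, Tnnc2 (-1.38) was called lower, Myh2 (0.37) was called higher, and Acta1 and Myh1 were not called. Trim54 (-2.50) passed the filter only through its neocortical values (a mean of 6.05, against 3.54 in the hippocampal formation). Its call as lower is therefore not read as a result. The part of these cell types in the Cox6a2 difference was not tested.

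The other tissue-restricted forms were dim. Cox7a1, the muscle-type partner of Cox7a2, was near the level of the filter in both structures, at a mean of 4.84 in the neocortex and 4.54 in the hippocampal formation. Its difference was -0.31 ± 0.24 (SD, n = 6; adjusted p = 0.085, and 0.046 with the set as replicate block), below 0 in each of the 6 animal pools, and it did not pass without the block. Cox8b, Cox7b2, Cox4i2 and Cox6b2 did not pass the filter and have no test. The log2 differences of Cox8b were 1.72 and 2.13 in control, 2.18 and 1.83 in deprived and -1.25 and -2.17 in recovery animal pools, at a mean signal so low (a log2 mean of 1.85 in the neocortex and 2.59 in the hippocampal formation) that these values are poorly measured. Those of Cox7b2 ran from -1.49 to 0.21, those of Cox4i2 from -0.82 to 1.14, and those of Cox6b2 from -0.13 to 0.38. The common counterparts Cox4i1 (-0.024), Cox6b1 (-0.057), Cox7b (0.077) and Cox8a (0.083) were bright and were not called.

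Complex I held 8 of the 12 subunits that were higher in the hippocampal formation, of 35 tested (22.9%, against 14.1% of all probe sets), and none that was lower (1, Ndufc2, at -0.13, after quantile normalization). All 8 also passed after quantile normalization. The median of the 35 did not keep its sign: it was 0.023, with 26 above 0, and -0.018, with 15 above 0, after quantile normalization. Ndufa5, an accessory subunit of the peripheral arm, had the largest difference in this direction. Its log2 signals in the neocortex were 7.84 and 8.09 in control, 7.75 and 8.0 in deprived and 7.76 and 8.0 in recovery pools, and in the hippocampal formation 8.44 and 8.18, 8.31 and 8.19, and 8.44 and 8.27. The lowest hippocampal pool was above the highest neocortical pool, and the difference was 0.40 ± 0.25 (SD, n = 6; adjusted p = 0.0067).

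Among the other accessory subunits of complex I, Ndufb10 and Ndufa3 also had pools that did not overlap. For Ndufb10, of the membrane arm, the differences were 0.37 and 0.083 in control, 0.39 and 0.15 in deprived and 0.28 and 0.15 in recovery animal pools (mean 0.24 ± 0.13, SD, n = 6; adjusted p = 0.0084). For Ndufa3, also of the membrane arm, they were 0.38 and 0.16, 0.53 and 0.12, and 0.29 and 0.086 (mean 0.26 ± 0.17, SD, n = 6; adjusted p = 0.011). The remaining called genes of complex I had overlapping pools: Ndufv2 (0.26), Ndufa7 (0.21), Ndufb7 (0.20), Ndufv3 (0.19) and Ndufa11 (0.18). Ndufv2, an iron-sulphur protein of the module that takes electrons from NADH, was the only one called among the 6 core subunits tested. Their median difference was 0.0082, and -0.020 after quantile normalization. Ndufs1, Ndufs3, Ndufs7, Ndufs8 and Ndufv1 were not called. In the opposite direction, the smallest p in complex I belonged to Ndufs4, an accessory subunit near the NADH module, at -0.23 ± 0.32 (SD, n = 6; adjusted p = 0.13).

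No subunit of complex II, the only complex of the chain coded wholly in the nucleus, was called on its brightest probe set. The differences ran from -0.033 for Sdha, the flavoprotein, to 0.13 for Sdhc, a membrane anchor. Sdhc was called with the set as replicate block (adjusted p = 0.016), and its difference was 0.26 in set 1 and -0.0083 in set 2. A second, dimmer probe set of Sdhd, the other anchor, was called higher (0.17; adjusted p = 0.033), while the brighter one was not (0.074; adjusted p = 0.27). In complex III all 8 subunits lay above 0 (6 of 8 after quantile normalization), and Uqcr11, a small accessory subunit, was called, at 0.11 ± 0.038 (SD, n = 6; adjusted p = 0.043), a call lost when any 1 animal pool was left out and after quantile normalization (0.035). Cyc1, the cytochrome that hands electrons to cytochrome c, differed by 0.015, and Uqcrfs1, the Rieske iron-sulphur protein, by 0.15 ± 0.18 (SD, n = 6; adjusted p = 0.10, and 0.0023 with the set as replicate block), with 0.32 in set 1 and -0.017 in set 2.

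In complex IV, Cox5b, a nuclear-coded zinc-binding subunit, was higher in the hippocampal formation. Its neocortical signals were 10.44 in both control pools, 10.43 and 10.46 in deprived and 10.30 and 10.50 in recovery pools, against hippocampal signals of 10.74 and 10.51, 10.72 and 10.59, and 10.64 and 10.56. The pools did not overlap, by a narrow margin, and the difference was 0.20 ± 0.13 (SD, n = 6; adjusted p = 0.015), which did not pass after quantile normalization (0.14). Of the 13 tested genes of complex IV it was the only 1 called higher (7.69%, against 14.1% of all probe sets). The call of Cox6a2 among the filtered probe sets is not used.

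Of the 16 tested genes of complex V, 2 were called higher (12.5%, against 14.1% of all probe sets) and 1 lower (6.25%, against 15.1%). The 3 called genes all code for the peripheral stalk, the arm that holds the catalytic head still while the rotor turns, and they did not move the same way. Atp5pb, the stalk's main membrane-anchored subunit, was higher in the hippocampal formation, with animal-pool differences of 0.29 and 0.077 in control, 0.26 and 0.17 in deprived and 0.33 and 0.22 in recovery (mean 0.22 ± 0.091, SD, n = 6; adjusted p = 0.0035) and pools that did not overlap. Atp5pd was higher by 0.15 ± 0.058 (SD, n = 6; adjusted p = 0.014), a call not kept after quantile normalization (0.082). Atp5pf, which codes for coupling factor 6, was lower, with differences of -0.20 and -0.18, -0.25 and -0.075, and -0.24 and -0.090 (mean -0.17 ± 0.075, SD, n = 6; adjusted p = 0.011). The fourth stalk gene, Atp5po, differed by 0.067 and was not called. None of the 5 genes of the catalytic head and central stalk (0.023 to 0.11) and none of the 6 tested genes of the membrane ring and its small neighbours (0.0047 to 0.093) was called. These groups of subunits were drawn up after the values were seen.

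**Figure D2:**
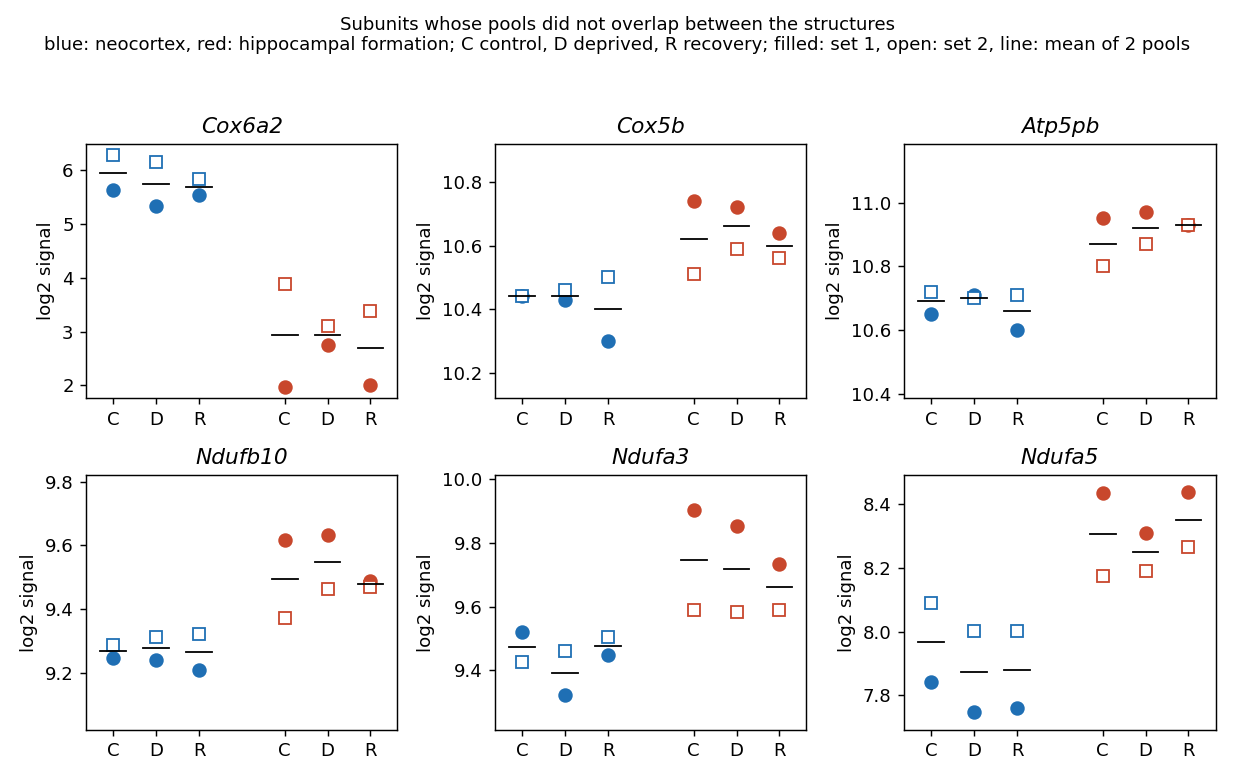
Log2 signal (vertical axes, each with its own range) in each of the 12 pools for the 6 subunits whose pools did not overlap between the structures, by sleep state along the horizontal axis, with neocortex in blue, hippocampal formation in red, set 1 filled, set 2 open and the mean of 2 pools as a line. Cox6a2 is at 3.89 or below in every hippocampal pool and at 5.34 or above in every neocortical one, and the other 5 genes are higher in the hippocampal formation, more so in set 1.

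The size of these differences depended on the set of rats. Of the 12 subunits that were higher in the hippocampal formation, 11 had a larger difference in set 1 than in set 2, with medians of 0.30 and 0.12. In set 1 alone 21 of 76 subunits were called higher and 6 of 76 lower, against 21.2% and 24.1% of all probe sets. In set 2 alone 0 of 76 were called higher and 1 of 76 lower, against 7.03% and 7.7%. The 1 lower was Cox6a2, whose call is not read as a result. With the set as a replicate block, 19 of 76 were higher and 3 of 76 lower, against 20.4% and 22.8% of all probe sets. The block added 8 calls: Sdhc, Uqcrfs1, Ndufa4, Ndufa13, Ndufs7, Cox8a and Atp5f1c higher and Cox7a1 lower. Leaving out 1 animal pool of set 1 reduced the number higher to 4 of 76 (without control), 5 of 76 (without deprived) or 7 of 76 (without recovery). The share of all probe sets higher was then 9.72%, 9.13% and 9.86%. In 10 of the 12 the difference was above 0 in all 6 animal pools, and Ndufa7 (-0.074) and Ndufv3 (-0.017) were below 0 in the control pool of set 2. Oligodendrocyte markers were also higher in the hippocampal formation, more so in set 1: 5 of 11 were called higher and none lower, with median differences of 0.28 in set 1 and 0.059 in set 2. Astrocyte markers had the larger difference in set 2 (medians of 0.040 and 0.23, 3 of 9 called higher), and no microglial marker of 8 was called (medians of -0.27 and -0.012). Of 10 neuronal markers 1 was called higher and 1 lower. The summed oligodendrocyte signal was 14220 to 17090 in the hippocampal pools of set 1 and 12020 to 13220 in those of set 2, and 11340 to 13350 in neocortical pools. The summed astrocyte signal was 15000 to 16100 and 14870 to 15850 in the hippocampal pools of sets 1 and 2, and 14720 to 14930 and 12660 to 13840 in the neocortical ones. The part of these cell types in the subunit differences was not tested.

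**Figure D3:**
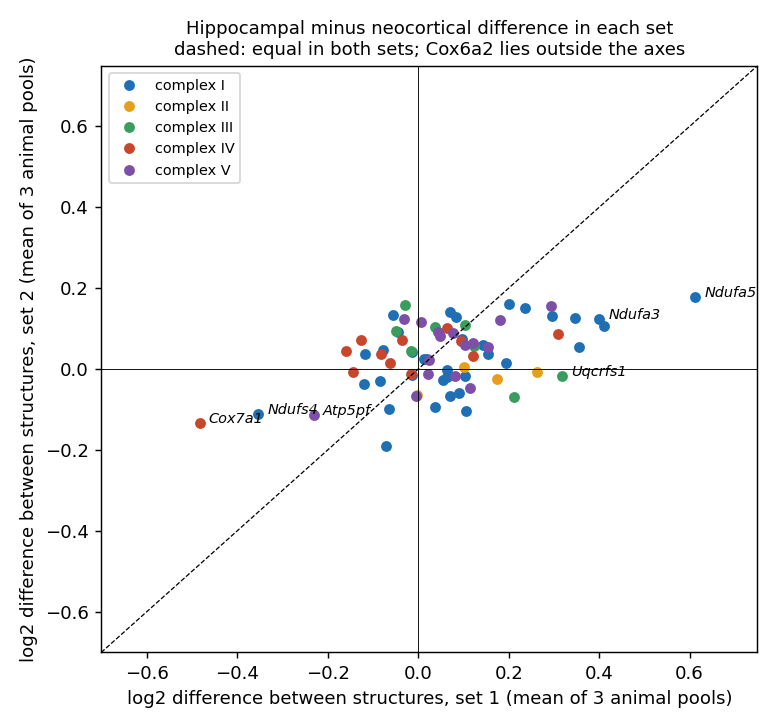
Log2 difference between hippocampal formation and neocortex in set 1 (horizontal axis) against set 2 (vertical axis), each the mean of 3 animal pools, for the subunits other than Cox6a2, coloured by complex, with the dashed line marking equal values. Ndufa5 lies at 0.61 in set 1 and 0.18 in set 2, and Ndufa3 at 0.40 and 0.12, both well to the right of the line.

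Promoters are shown for Cox6a2, which had the largest difference, and for a pair of genes higher in the hippocampal formation whose promoters hold one of the motifs searched, Cox5b and Ndufa11. RefSeq promoter windows (build GRCr8, 250 bases before to 50 after the start site that the table uses) were matched by gene identifier for 71 of the 80 genes. In 51 of the 71 that start is the edge of the gene's annotated span, as for Ndufa11, and in 20 it lies inside, 102 bases for Cox5b and 1472 bases for Cox6a2, so the Cox6a2 window lies within the annotated gene. The motifs, each searched on both strands, were GCGCATGCG of NRF1, CCGGAAG of ETS factors such as GABP, TCAAGGTCA of ESRRA and AAGATGGCG of YY1, all known regulators of nuclear genes for mitochondrial proteins. Capitals mark matches.
Cox6a2, chr1:192219667-192219966, minus strand: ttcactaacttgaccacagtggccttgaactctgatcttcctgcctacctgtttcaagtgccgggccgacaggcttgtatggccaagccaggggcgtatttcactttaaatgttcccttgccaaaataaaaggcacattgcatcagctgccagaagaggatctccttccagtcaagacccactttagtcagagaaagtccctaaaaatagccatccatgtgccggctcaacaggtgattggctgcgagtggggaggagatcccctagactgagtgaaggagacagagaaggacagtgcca
Cox5b, chr9:46417587-46417886, plus strand: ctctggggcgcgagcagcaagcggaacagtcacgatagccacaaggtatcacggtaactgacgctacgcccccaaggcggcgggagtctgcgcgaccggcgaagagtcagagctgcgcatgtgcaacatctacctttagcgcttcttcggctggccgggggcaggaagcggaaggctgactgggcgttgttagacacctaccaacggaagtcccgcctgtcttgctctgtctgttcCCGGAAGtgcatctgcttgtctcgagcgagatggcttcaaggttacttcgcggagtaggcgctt
Ndufa11, chr9:1637364-1637663, plus strand: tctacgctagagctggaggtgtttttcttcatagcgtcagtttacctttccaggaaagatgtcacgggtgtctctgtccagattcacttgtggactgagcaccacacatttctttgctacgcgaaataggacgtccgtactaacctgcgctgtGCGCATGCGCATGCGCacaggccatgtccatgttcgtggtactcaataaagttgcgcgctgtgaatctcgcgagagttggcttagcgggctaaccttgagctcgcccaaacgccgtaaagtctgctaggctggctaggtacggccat
The Cox5b window held 1 match to the ETS motif, the Ndufa11 window a stretch with 4 overlapping matches to the NRF1 motif, and the Cox6a2 window none. The NRF1 matches were counted on both strands, where 1 site can match on each, so they are not 4 separate sites. Of the 71 windows, 5 (7.04%) held the NRF1 motif, 20 (28.2%) the ETS motif, 2 (2.82%) the ESRRA motif and 10 (14.1%) the YY1 motif. Over all 27457 windows the shares were 1.66%, 9.22%, 0.412% and 1.93%. At least 1 motif stood in 30 of the 71 windows (42.3%), against 12.4% of all. Of the genes called between the structures, Ndufa11 held the NRF1 motif, Cox5b and Ndufb7 the ETS motif, and Atp5pf, which was lower, both the ETS and the YY1 motif. The windows of Ndufa5, Ndufb10 and Atp5pb, also called, held none of these motifs. A link between the motifs and the structure differences was not tested.

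Among the 90 tested genes of 6 lists around the chain, 11 (12.2%) were called higher in the hippocampal formation and 8 (8.89%) lower, shares below those of all probe sets (14.1% and 15.1%). Of 11 tested assembly factors of complex I, Ndufaf1 was called higher in the hippocampal formation (0.52) and none lower. Ndufaf1 was near the level of the filter, at a mean of 4.98 in the hippocampal formation and 4.45 in the neocortex. Of 26 assembly factors of complexes II to V, Sdhaf1 was higher (0.21), and 4 were lower: Atpaf1, a chaperone of the ATP synthase head (-0.42), Cox20 (-0.41), and the haem-modifying enzymes Cox10 (-0.26) and Cox15 (-0.17). Of 11 carriers and electron donors, Gpd2, the mitochondrial glycerol-3-phosphate dehydrogenase (0.55), and Etfb, a subunit of the electron transfer flavoprotein (0.53), were higher and none was lower. Of 14 genes of the tricarboxylic acid cycle and pyruvate dehydrogenase, Suclg1 (0.28) and Idh3g (0.14) were higher and Dlst (-0.22) was lower. Of 14 regulators of mitochondrial biogenesis, the deacetylase Sirt3 (0.30) and the transcription factor Yy1 (0.17) were higher and the mitochondrial DNA polymerase Polg (-0.26) was lower. Of 14 glycolysis genes, Pfkl (0.61), Aldoa (0.23) and Ldha (0.17) were higher and Pfkp (-0.26) and Ldhb (-0.16) were lower. Some lists depended on the set: the median difference in sets 1 and 2 was 0.21 and 0.031 for the carriers. For glycolysis it was 0.015 and 0.016.

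No subunit was called between sleep states in either structure. In limma on the 12 pools, 0 of 76 were called for deprived against control, recovery against control and recovery against deprived, in the neocortex and in the hippocampal formation, where 0 of all probe sets (0%) were called as well. At an unadjusted p under 0.05, 1 of the 76 stood in neocortical recovery against control and 0 in each of the other 5 comparisons, while 169 to 301 of the 18625 probe sets did. Those counts lie under the share of 0.05 that chance alone would give. Without the block, differences between the sets stay in the error of this test, so its low counts do not show that nothing changed. With the set as a replicate block, 0 subunits were called, against 0.0107% of all probe sets for deprived against control and 0.00537% for recovery against deprived in the neocortex and 0% elsewhere, and 0 to 4 subunits per comparison stood at an unadjusted p under 0.05. Of all probe sets, 849 to 1363 did. The response also did not differ detectably between the structures: 0 subunits and 0 probe sets (0%) were called for the difference of deprived minus control or of recovery minus control, with 0 subunits and 213 and 243 probe sets at an unadjusted p under 0.05. These counts are likewise under the share that chance would give.

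The changes were small beside their error. The median change of the 76 subunits in the neocortex was -0.025 for deprived minus control, -0.00051 for recovery minus control and 0.013 for recovery minus deprived. Each of them changed sign after quantile normalization (0.0026, 0.0025 and -0.0092). In the hippocampal formation the medians were -0.0013 (0.013 after quantile normalization), -0.018 and -0.022. Between 58 and 71 of the 76 subunits changed by under 0.1, or 76.3% to 93.4%, where 55.9% to 61.6% of all genes did. The subunits were brighter than most genes, and genes of like brightness were not set beside them. The 95% interval of a subunit's change had a median half-width of 0.26, or 0.14 with the set as replicate block, and changes well under these sizes could not be told from 0 with 2 pools a group. By complex the medians lay between -0.040 (complex IV, hippocampal recovery minus deprived) and 0.047 (complex V, neocortical recovery minus deprived).

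**Figure D4:**
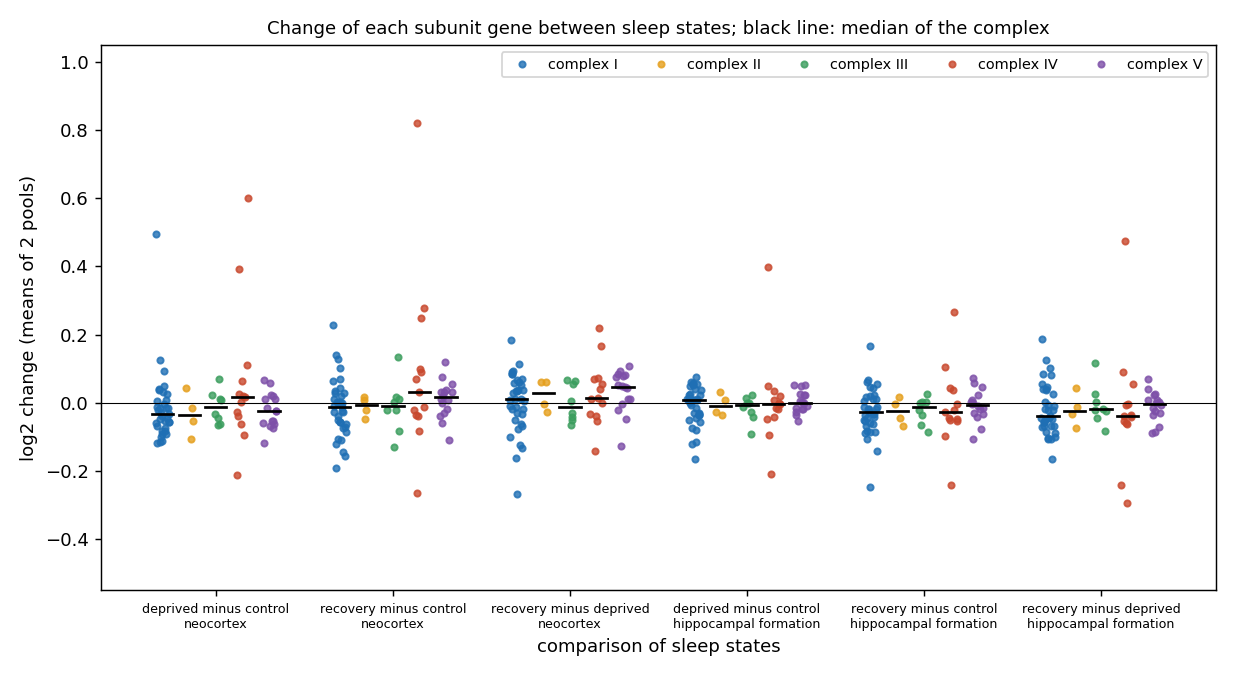
Log2 change of each of the 76 subunits between sleep states (vertical axis, difference of means of 2 pools) for the 3 comparisons in each structure (horizontal axis), coloured by complex, with the median of each complex as a black line. The medians lie between -0.040 and 0.047, and the points that lie farthest from 0 are Cox6c-ps1 (0.82 and 0.60) and Ndufs4 (0.50) in the neocortex.

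In the neocortex after deprivation, the subunit with the smallest p was Ndufs4. Its log2 signals were 6.79 and 6.88 in control, 7.07 and 7.60 in deprived and 7.11 and 7.02 in recovery pools. Both deprived pools were above both control pools, by a mean of 0.50 (95% interval -0.02 to 1.01, n = 2 pools a group), and the deprived pool of set 2 was the highest. In the hippocampal formation Ndufs4 stood at 6.55 and 7.09 in control and 6.69 and 6.97 in deprived pools, which overlapped. Cox6c-ps1, near the level of the filter, stood at 4.17 and 3.74 in neocortical control pools, 4.42 and 4.69 in deprived and 5.11 and 4.44 in recovery pools, and was not called in any comparison of states. Its recovery minus control difference was 0.82 (95% interval 0.13 to 1.51, n = 2 pools a group; limma adjusted p = 1). Its probe set may share sequence with the bright parent gene Cox6c, whose difference was 0.099.

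Cox7a1 gave 4.81 and 4.45 in neocortical control pools against 4.97 and 5.07 in deprived pools, and 4.39 and 4.34 in hippocampal control pools against 4.67 and 4.86 in deprived pools. The deprived pools were above the controls in both structures, by 0.39 and 0.40, and neither difference was called. Also not overlapping in the neocortex after deprivation were Ndufb8 (0.13), an accessory subunit of the membrane arm, and, below control, Atp5f1a, the catalytic head's alpha subunit (-0.12), Ndufb5 (-0.12) and Ndufa9 (-0.11). In all, 14 of 76 subunits (18.4%) had pools that did not overlap, against 24.5% of all probe sets.

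For neocortical recovery against control, Cox5a, a matrix-facing subunit of complex IV, had 6.36 and 6.56 in control and 6.75 and 6.72 in recovery pools, a difference of 0.28. Ndufs7, an iron-sulphur subunit close to the ubiquinone site, had 9.36 and 9.42 in control and 9.05 and 9.34 in recovery pools, a difference of -0.19. Uqcrh, the hinge protein of complex III, differed by 0.13, Atp5f1e by 0.12 and Ndufs4 by 0.23. None of these was called, and 14 of 76 subunits (18.4%) did not overlap, against 24% of all probe sets. For recovery against deprived, Ndufs7 (-0.16), Ndufb8 (-0.12), Cox5a (0.17), Ndufs4 (-0.27) and Atp5f1e (0.11) had the smallest p, Cox7a1 (-0.14) and Ndufa12 (0.11) were also among the larger values without overlap, and 10 of 76 (13.2%) did not overlap, against 23.4%. These 3 comparisons share pools, so their values are not independent.

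In the hippocampal formation, Ndufa11, a membrane-arm subunit, had 9.09 and 9.0 in control, 8.82 and 8.94 in deprived and 9.03 and 9.10 in recovery pools. The deprived pools were the lowest, by 0.16 below control and 0.19 below recovery, and neither difference was called. Ndufb8 had 7.18 in both control pools, 7.21 and 7.23 in deprived and 7.31 and 7.38 in recovery pools, a difference of 0.17 between recovery and control. After deprivation, Ndufb4 (-0.12), Uqcrc2 (-0.091) and Ndufb6 (-0.12) had the next smallest p, and Ndufa8 (0.076), Ndufb3 (0.058) and Ndufb2 (0.056) were above control without overlap. In hippocampal recovery against control, the genes with the next smallest p were Ndufa4l2 (-0.25), Ndufa6 (-0.14), Ndufs8 (-0.11) and Uqcrq (-0.086), and Cox6c-ps1 (0.27) did not overlap. In recovery against deprived they were Cox6c-ps1 (0.48), Cox7a1 (-0.29), Ndufb8 (0.12) and Uqcrc2 (0.12), and Ndufa4l2 (-0.16) and Ndufb2 (-0.11) were lower without overlap. None of these was called. The pools did not overlap for 10 of 76 subunits (13.2%) after deprivation against 19.3% of all probe sets, for 7 (9.21%) in recovery against control (19.9%), and for 20 (26.3%) in recovery against deprived (23.2%). In the last comparison 11 of the 20 were lower in recovery.

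The set of rats also separated the pools. The 3 pools of set 1 and the 3 of set 2 did not overlap for 36 of 76 subunits (47.4%) in the neocortex and 38 (50%) in the hippocampal formation, against 36.3% and 43.2% of all probe sets. The subunits of ATP synthase were higher in set 1, by a median of 0.13 in the neocortex (10 of 16 genes) and 0.093 in the hippocampal formation (14 of 16). Those of complex III were lower in set 1, by a median of -0.053 in the neocortex (2 of 8 above 0) and -0.067 in the hippocampal formation (1 of 8). The sets differ in rats and in the number of arrays a pool had, which cannot be told apart.

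None of the genes around the chain was called between sleep states either, over the assembly factors, carriers, tricarboxylic acid cycle, regulator and glycolysis lists in the 6 comparisons. Sco1, a copper chaperone of complex IV, had the smallest p of the assembly factors, at 0.33 in neocortical recovery minus deprived.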

How the data were processed

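The authors deposited linear MAS5 signal intensity values for 31099 probe sets on 18 Affymetrix rat arrays; MAS5 is named in the submitters' processing notes, and its scaling target and detection calls are not given in the sources used here. Signals were raised to a floor of 1 and turned into log2 values, 57 control probe sets and the lowest 40% by mean were left out (18625 kept of 31042), and no further normalization was applied. Arrays of 1 pool were averaged, giving 12 pools from 6 animal pools.

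limma 3.58.1 in R 4.3.3 (lmFit, eBayes with trend, Benjamini-Hochberg adjustment over all kept probe sets) gave the tests. The structures were compared on the paired differences of 6 animal pools, since both were dissected from the same rats, with the states as replicates. The states were compared in a means model of 6 groups without a block. The precision is limited by 2 pools a group, and the signals carry no read depth. The fits were run on simulated data with independent noise in each pool. Those data held no pairing of the structures and no difference between the sets, so they do not test how the fits handle either.

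Same-set deviations from the group means correlated at 0.54 to 0.68 between states of a structure. The labels give no shared litter, day or batch for a set number, so the block is an alternative.

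Probe sets were named from the platform annotation: 20832 have 1 symbol, 436 several and 9831 none. All 80 members matched a RefSeq gene identifier with the same symbol. Named genes were, between structures, all called members and the tissue-type isoforms; between states, where none was called, the 5 with the smallest p and those not overlapping among the 5 largest each way. Neighbouring pathways were named by their called genes. The members, gene lists and markers were chosen with earlier results of these data known. Alternatives were quantile normalization, 16 added to each signal, no filter, the mean of a gene's probe sets, technical array 1 only, the block, no pairing, each set alone, leaving out each pool and, chosen after seeing the data, sleep state as a term. Figures were drawn with matplotlib.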

Additional observations from a re-analysis of the deposited data

Results flagged for a closer look

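Ndufa7 was called higher in the hippocampal formation, and 1 animal pool stood apart from the other 5: the control pool of set 2 gave -0.074, where the others gave 0.21 to 0.33. The gap to the nearest pool was 0.713 of the whole range. Chance sets a pool apart in this way in about 1 in 20 such groups, and 14 called genes were looked at.

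In recovery minus deprived, the median change of the 76 subunits was above 0 in both neocortical sets (0.027 and 0.021) and below 0 in both hippocampal sets (-0.040 and -0.0095), a difference between the structures of -0.049. The set medians of complex II (-0.062), complex III (-0.039) and complex IV (-0.088) had the same opposite signs, but the neocortical median of complex III over the mean of both sets was -0.012. The medians of all genes were 0.0069 in the neocortex and -0.0065 in the hippocampal formation. The difference itself was not tested, the groups share pools, and after quantile normalization the neocortical median of all 76 was -0.0092 and those of complexes II, III and IV were -0.0025, -0.055 and -0.0099.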

How the results depend on the processing

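Between the structures, the median difference (0.041) was -0.0023 after quantile normalization and 0.064 in set 1 alone, and 0.036 to 0.055 when an animal pool was left out. The 12 subunits higher became 7 with technical array 1 only, 4 without pairing, 5 with sleep state as a term (chosen after seeing the data), 21 in set 1 alone and 0 in set 2 alone, and 4 to 12 when an animal pool was left out. The 2 lower became 4 after quantile normalization, with Cox4i1 and Ndufc2 added, 1 without pairing, 6 in set 1 alone, 1 in set 2 alone, and 2 to 3 when an animal pool was left out. With technical array 1 only, without pairing and with sleep state as a term, the share of all probe sets called was not counted. Changes in the number of calls under those settings are therefore not read as a property of the subunits. With the set as replicate block, 19 were higher and 3 lower, all 14 genes stayed called, and no call between sleep states was gained. None of the 14 reversed. Set 2 alone kept 1 call, that of Cox6a2, which is not read as a result, and 5 were kept without pairing. The cause of these shifts was not tested.

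Between sleep states, the neocortical medians moved. Deprived minus control was 0.0026 after quantile normalization and -0.018 to 0.016 when a pool was left out. Recovery minus control was -0.030 with technical array 1 only and -0.013 to 0.027 when a pool was left out. Recovery minus deprived was -0.0092 after quantile normalization, 0.0035 with technical array 1 only, 0.027 in set 1, 0.021 in set 2 and 0.0088 to 0.020 when a pool was left out. In the hippocampal formation, leaving out a pool gave -0.039 to 0.043, -0.063 to 0.027 and -0.044 to -0.0072 for the same comparisons. No alternative with a test called a subunit. When a pool is left out, the lone pool is assumed to vary like the other groups.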
